A study of Mus musculus with 9 samples.

Results

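A pair of conditional deletions of Ebf1 were compared directly with each other. Genotype labels put 3 of the 9 embryos of the series in Dlx5/6::Cre;Ebf1fl/- and 3 in Islet1Cre;Ebf1fl/-, and these 6 made up the comparison. Striatum was dissected at E17.5, 1 brain per library, and polyadenylated RNA was sequenced. The labels give C57BL/6 as strain background for all embryos, and the methods of the study add that the Islet1Cre line was kept on B6D2F1/J. In both mutants 1 Ebf1 allele was floxed and the other was null, so every mutant cell outside the Cre lineage was heterozygous for Ebf1. The other 3 embryos were labelled Control, a group in which the study included heterozygotes. They did not enter the test between the mutants and their values are set beside it. Nothing in the labels says how the 3 embryos of a genotype were spread over litters, so p values measure the spread between these embryos.

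Ebf1 is a helix-loop-helix transcription factor that in the developing striatum marks the spiny projection neurons of the direct pathway (dSPN), which project to the substantia nigra. Spiny projection neurons of the indirect pathway (iSPN), which project to the globus pallidus, intermingle with them and normally lack it. Islet1Cre recombines in dSPN and in cholinergic interneurons once they differentiate, whereas Dlx5/6::Cre recombines in the subventricular zone, in all SPN and in interneurons. The comparison therefore asks whether a deletion in all SPN and interneurons changes transcripts that a deletion in dSPN and cholinergic interneurons leaves alone. The study reports that striatal interneurons do not express Ebf1. In bulk tissue, fewer cells of a type and less RNA per cell cannot be told apart.

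Every embryo also carries a code in its label. All 3 Dlx5/6::Cre;Ebf1fl/- embryos have a code beginning with D and all 3 Islet1Cre;Ebf1fl/- embryos a code beginning with IE. What the letters stand for is not given in the sources used here. Code and genotype cannot be told apart within the mutants. Controls 1 and 2 have the prefix IE and control 3 the prefix D, so control 3 is the single embryo that carries the code D without a conditional deletion.

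Counts on genes totalled 27915040 to 38002318 in the Dlx5/6::Cre;Ebf1fl/- libraries and 16548083 to 41507049 in the Islet1Cre;Ebf1fl/- libraries. Both groups hold a library that stands apart. Dlx5/6::Cre;Ebf1fl/- embryo 1 carried 737.9 CPM (counts per 1e6 counts on genes) on 12 cell cycle genes, against 157.1 to 237.5 in the other 8 libraries. Islet1Cre;Ebf1fl/- embryo 3, the shallowest library, held counts of Xist, the RNA of the inactive X chromosome, together with counts of 4 Y-linked genes. Its normalized count (counts divided by DESeq2 size factors) was 7270 for Xist and 583.5 for Ddx3y. The other 5 mutant embryos had Xist between 10719 and 17982 and at most 1.42 for any of the 4 Y-linked genes. Both libraries were kept, and many results, though not all, are also given without 1 or both of them. Among controls, control 2 had Y-linked counts with Xist at 3.27, while control 3 held Xist at 12074 together with Y-linked counts at a lower level, from 23.1 for Uty to 109.7 for Eif2s3y. Every comparison with the code therefore rests on 1 control that also holds both kinds of transcript, and has no value without it.

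The test between the mutants, edgeR's quasi-likelihood test with Benjamini-Hochberg adjustment, was applied to 15885 genes. Values of single embryos are normalized counts in the order of embryos 1, 2 and 3, and differences are log2 values of Dlx5/6::Cre;Ebf1fl/- minus Islet1Cre;Ebf1fl/-, with their standard error (SE). At an adjusted p below 0.05, 2 genes were called, Tuba1c and Gm9855, which is 0.0126% of the genes tested. An unadjusted p below 0.05 was found for 678 genes, 4.27% of those tested. Of these, 256 (1.61%) were higher in Dlx5/6::Cre;Ebf1fl/- and 422 (2.66%) lower. Over all genes the median difference was 0.01 and the quartiles lay at -0.11 and 0.11. Groups of 3 that did not overlap were found for 1213 of 12057 genes with a mean normalized count of at least 100, which is 10.1%. Permuting 3 embryos against 3, an exact two-sided test has a smallest p of 0.10.

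**Figure D1:**
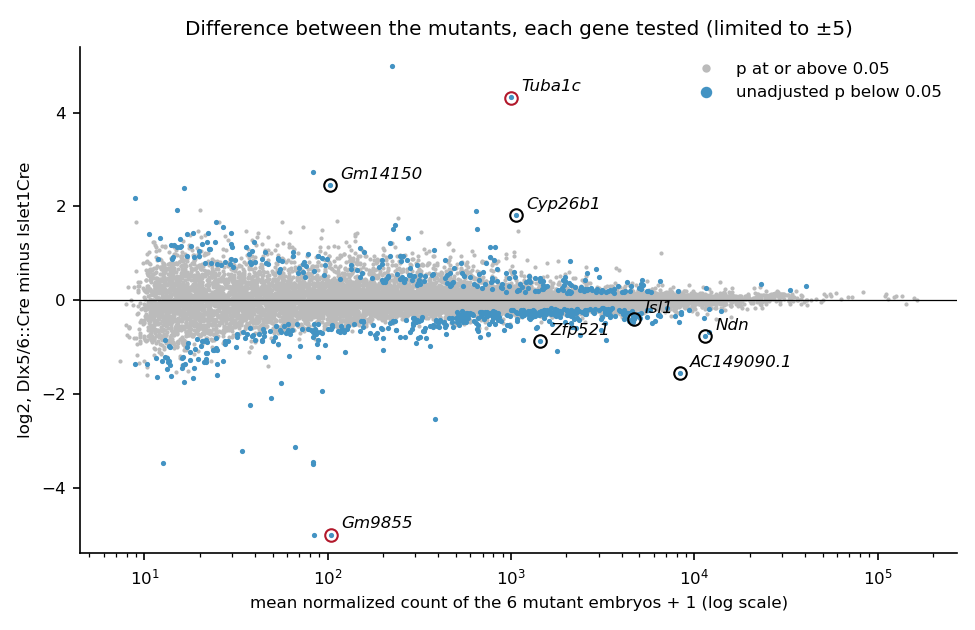
Each point is 1 of the 15885 genes tested. The horizontal axis is the mean normalized count of the 6 mutant embryos plus 1 on a log scale, and the vertical axis is the log2 difference between the mutants, limited to 5 in either direction. Blue points have an unadjusted p below 0.05, red circles mark the called genes Tuba1c and Gm9855, and black circles mark other genes named in the text.

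Tuba1c encodes an alpha-tubulin, a subunit of microtubules, and lies at chr15:99029891-99038110 of GRCm38. Gm9855, at chr10:42054113-42055306, is annotated as a processed pseudogene. Both resemble other genes closely. Of the 75-base windows in Tuba1c transcripts, 48.9% also occur in transcripts of another gene, 40.3% in Tuba1b. For Gm9855 the share was 78.3%, with 68.1% in Tdg, which encodes thymine DNA glycosylase. The authors dropped reads that matched more than 1 position, so the counts of both genes rest on the bases that set them apart. To show how small that difference can be, the stretches below are the exonic windows of 1 read length that differ least, without being identical, from the closest gene. They were read from the GENCODE M21 transcripts, lie in coding sequence in Tuba1c, Tuba1b and Tdg, and have in capitals the only base that differs. Those of Tuba1c and Tdg are on the plus strand and those of Tuba1b and Gm9855 on the minus strand.
Tuba1c, chr15:99037035-99037109: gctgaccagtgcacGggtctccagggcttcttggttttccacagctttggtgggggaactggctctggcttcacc
Tuba1b, chr15:98932488-98932562: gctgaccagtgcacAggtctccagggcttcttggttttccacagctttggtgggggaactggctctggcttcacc
Gm9855, chr10:42055209-42055283: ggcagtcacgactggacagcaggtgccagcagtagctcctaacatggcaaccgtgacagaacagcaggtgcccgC
Tdg, chr10:82638773-82638847: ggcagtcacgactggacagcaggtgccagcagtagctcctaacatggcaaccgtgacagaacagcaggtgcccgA

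Tuba1c counted 2097, 1709 and 1862 in Dlx5/6::Cre;Ebf1fl/- and 106, 80.2 and 100.2 in Islet1Cre;Ebf1fl/-. The groups were far apart, with a log2 difference of 4.32 (SE 0.15, 95% interval 3.99 to 4.66, edgeR adjusted p = 2.03e-05). The same split ran through the controls, at 109.4 and 96.4 in the embryos with code IE and 1985 in the embryo with code D. Tuba1b, the closest relative, had 2558, 1568 and 1560 against 1950, 1425 and 1772, with overlapping groups and a difference of 0.14 (SE 0.21). Tuba1a, the most abundant alpha-tubulin of young neurons, differed by -0.08 (SE 0.11), also with overlapping groups.

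Gm9855 had no count in any Dlx5/6::Cre;Ebf1fl/- embryo and 262.3, 233.4 and 123.5 in Islet1Cre;Ebf1fl/- (edgeR adjusted p = 0.0393). The call was lost without Dlx5/6::Cre;Ebf1fl/- embryo 2 (edgeR adjusted p = 0.051) and without Islet1Cre;Ebf1fl/- embryo 1 (0.334) or 2 (0.35), whereas that of Tuba1c held without any single embryo. Against a floor of 3 counts per library it was at least 73.6-fold lower in Dlx5/6::Cre;Ebf1fl/-. Controls had 167.3 and 225.4 with code IE and 0.962 with code D. Tdg counted 1656, 1289 and 1376 in Dlx5/6::Cre;Ebf1fl/- and 989.4, 998.2 and 1187 in Islet1Cre;Ebf1fl/-, a difference of 0.44 (SE 0.12, edgeR adjusted p = 0.922). Here too control 3 sat with Dlx5/6::Cre;Ebf1fl/-, at 1378 against 869.2 and 1072 in the other controls.

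In a fit to all 9 embryos with 3 genotype groups, neither gene was called, and both had an adjusted p of 0.868. With the code prefix as a further term, which sets each mutant against the controls of its own code, the difference was 0.06 for Tuba1c and -3.24 for Gm9855. In that fit 1 of 16368 genes (0.00611%) was called, Rpsa-ps10, a pseudogene that counted 6133 and 5623 in controls 1 and 2, 16.4 in control 3 and between 9.71 and 20.03 in all 6 mutant embryos.

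Several genes that missed the threshold showed the same agreement with the code. Gm14150, a processed pseudogene whose 75-base windows occur to 51.9% in Tuba1b, had 240.7, 138.4 and 136.2 against 27.2, 31.9 and 34.0. Controls 1 and 2 had 35.3 and 28.6 and control 3 had 126. The difference was 2.46 (SE 0.30, edgeR adjusted p = 0.123). AC149090.1, on the unplaced scaffold JH584304.1, had 2859, 5099 and 4758 against 12265, 13544 and 11240, with 15280 and 10994 in controls 1 and 2 and 4641 in control 3. It differed by -1.55 (SE 0.20, edgeR adjusted p = 0.156).
Ndn, an imprinted gene encoding the MAGE protein necdin, which acts in neuronal differentiation and survival, followed the same pattern at a high level. It had 7199, 8926 and 9124 in Dlx5/6::Cre;Ebf1fl/- and 16054, 12791 and 14083 in Islet1Cre;Ebf1fl/-. Controls 1 and 2 had 12842 and 15279 and control 3 had 7956. The difference between the mutants was -0.77 (SE 0.12, edgeR adjusted p = 0.508), and 0.06 once the prefix was in the fit.

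Among the 13 genes with an unadjusted p of at most 0.001, control 3 lay beyond controls 1 and 2 on the side of Dlx5/6::Cre;Ebf1fl/- for 10 (76.9%) and on the opposite side for 1. Over all genes tested those shares were 28.9% and 29.8%. For the 678 genes with an unadjusted p of at most 0.05 they were 27.7% and 30.7%, close to those of all genes. Agreement with the code was thus seen among the few most separated genes and not across the longer list.
An absolute log2 difference above 2 with an unadjusted p below 0.05 was found for 16 genes, and 10 of them are annotated as pseudogenes, against 371 of all genes tested (2.34%). Control 3 was on the side of Dlx5/6::Cre;Ebf1fl/- for 11 of the 16. These genes were looked at after their values were known. Some varied between embryos of the same genotype rather than between genotypes. Rpl3-ps1 counted 5.4, 665.6 and 641.7 in Dlx5/6::Cre;Ebf1fl/- and 10.9, 5.68 and 14.3 in Islet1Cre;Ebf1fl/-. Gm9625 counted 1409, 82.3 and 460 in Islet1Cre;Ebf1fl/-, with 106.9, 130.2 and 97.0 in Dlx5/6::Cre;Ebf1fl/-, 1143 and 1102 in controls 1 and 2 and 96.2 in control 3.

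**Figure D2:**
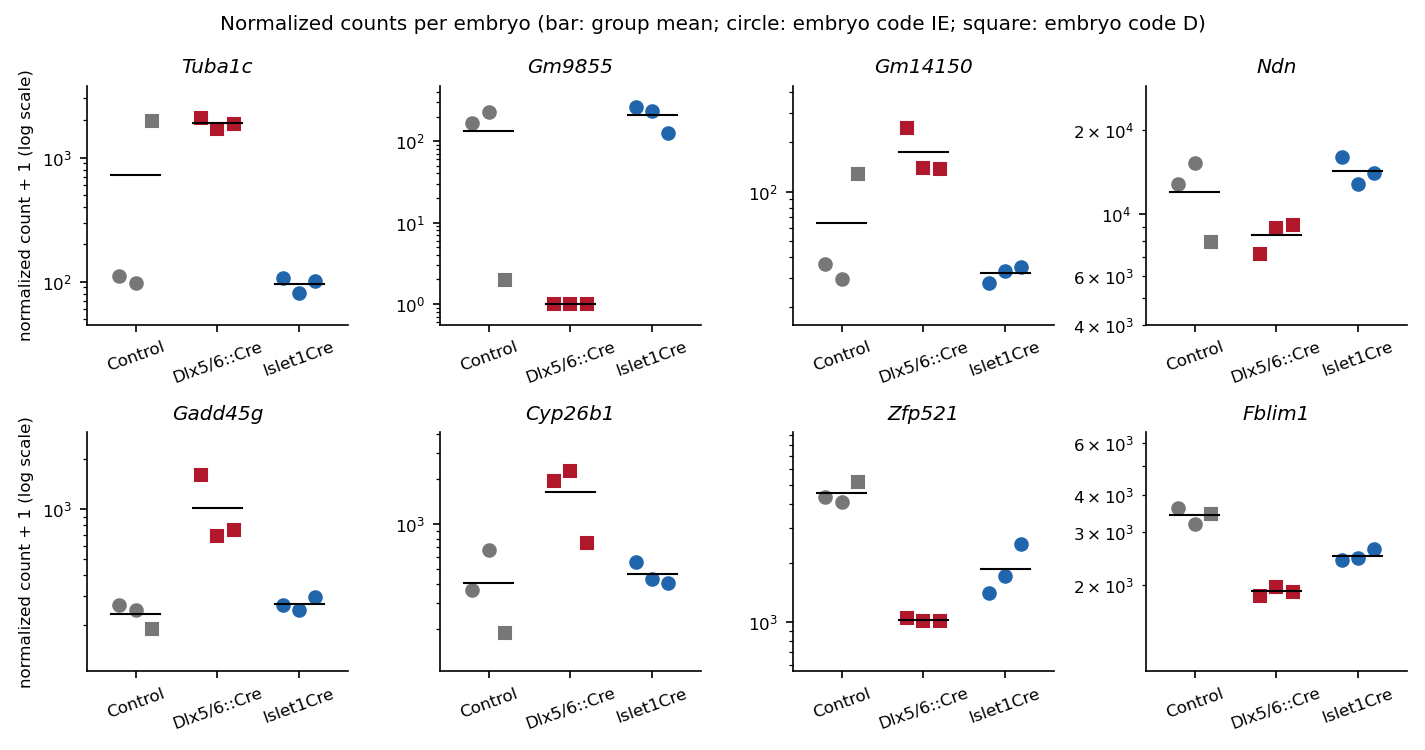
Normalized counts plus 1 (log scale) of 8 genes in each of the 9 embryos. Grey, red and blue are control, Dlx5/6::Cre;Ebf1fl/- and Islet1Cre;Ebf1fl/- embryos, circles have the code IE and squares the code D, and bars are group means. In the upper row the grey square of control 3 sits with the red squares, and in the lower row it stays near the other controls or moves away from the red squares.

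The loci behind the design were examined next. By immunostaining, the study found no Ebf1 protein in the striatum of either mutant at E17.5. As RNA, Ebf1 was not lower in either mutant than in controls. It had 11774, 13079 and 15312 in Dlx5/6::Cre;Ebf1fl/-, 15343, 13866 and 13210.0 in Islet1Cre;Ebf1fl/- and 7945, 14208 and 9697 in controls. Reads were summed over all exons, so the loss of the floxed part alone would not be visible in this count. The mutants overlapped, with a difference of -0.09 (SE 0.11).
Isl1, the LIM-homeodomain factor of dSPN and cholinergic neurons whose gene drives Islet1Cre, had 3979, 3908 and 4262 in Dlx5/6::Cre;Ebf1fl/- and 5415, 5668 and 4927 in Islet1Cre;Ebf1fl/-. The groups did not overlap, and the difference was -0.40 (SE 0.08, unadjusted p = 9.5e-04, edgeR adjusted p = 0.922). Controls had 5065, 6247 and 4713, so control 3 was the lowest, and with the prefix in the fit the difference was -0.13 (unadjusted p = 0.46). DESeq2's Wald test called this gene with an adjusted p of 0.0188, whereas over all alternatives the adjusted p ran from 0.0188 to 1.
Dlx5 and Dlx6, homeobox genes of striatal and interneuron precursors whose enhancers drive Dlx5/6::Cre, differed by 0.13 (SE 0.14) and 0.05 (SE 0.13). Both signs turned with the prefix in the fit. Within 10 Mb of these loci an unadjusted p below 0.05 was found for 1 of 51 genes around Isl1 (1.96%), 5 of 123 around Ebf1 (4.07%) and 2 of 44 around Dlx5 (4.55%), and none was called.

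Genes of dSPN identity were, for the most part, lower after the Dlx5/6::Cre deletion. Of the 12 tested, 11 had a lower mean, with a median difference of -0.38 against 0.01 over all genes. None was called, and 6 (50%) had an unadjusted p below 0.05, all lower, against 4.27% of all genes tested. Summed over the list, dSPN genes had 1026, 1195 and 1242 CPM in Dlx5/6::Cre;Ebf1fl/- and 1354, 1349 and 1534 in Islet1Cre;Ebf1fl/-, with 1787 to 2011 in controls. The mutant groups did not overlap and both lay below the controls. The list was chosen with earlier results of these samples known and is not independent evidence of its direction.
Zfp521, a zinc finger factor that binds EBF1, had 1043, 1003 and 1009 in Dlx5/6::Cre;Ebf1fl/-, 1408, 1706 and 2488 in Islet1Cre;Ebf1fl/- and 4358, 4075 and 5144 in controls. The first group was narrow and lay below the lowest embryo of the second. The difference was -0.88 (SE 0.19, unadjusted p = 0.0014, edgeR adjusted p = 0.922, range over the alternatives 0.00717 to 1). Without Islet1Cre;Ebf1fl/- embryo 3 the difference was -0.62, and without both libraries that stand apart it was -0.64. Zfp521 was called by DESeq2's Wald test and without the filter on low counts.
Chrm4, the muscarinic M4 receptor of dSPN, had 152.2, 188.5 and 212.8 against 266.4, 228.4 and 363.3, and 474.9 to 570.8 in controls. Its difference was -0.63 (SE 0.22) and -0.30 without the 2 libraries that stand apart. Tac1, the substance P precursor, had 1467, 1868 and 2088 against 2346, 2289 and 3544, a difference of -0.59 (SE 0.19) that became -0.23 without them. Foxp2, a forkhead factor of dSPN, differed by -0.40 (SE 0.12), and by -0.24 without both libraries. Plxnd1, a semaphorin receptor, differed by -0.46 (SE 0.17), by -0.23 without Islet1Cre;Ebf1fl/- embryo 3, by -0.16 without both libraries and by -0.08 with the prefix in the fit.
The dopamine receptor Drd1 itself had 1728, 2200 and 2273 against 2438, 2269 and 2107. The groups overlapped, with a difference of -0.14 (95% interval -0.40 to 0.12). It was -0.03 without Dlx5/6::Cre;Ebf1fl/- embryo 1 and -0.71 with the prefix in the fit (unadjusted p = 0.082), and control 3 was the highest control. Mef2c, an activity-regulated transcription factor, was the member with a higher mean, at 0.14 (SE 0.16). Without both libraries the list median was -0.20, with 10 of 12 members lower.

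Genes of iSPN identity did not separate the mutants. All 6 members tested had a higher mean in Dlx5/6::Cre;Ebf1fl/-, with a median of 0.13, but the groups overlapped for each and none had an unadjusted p below 0.05. Drd2, the dopamine receptor of iSPN, had 1606, 2140 and 2320 against 2101, 1917 and 1681, a difference of 0.08 (95% interval -0.24 to 0.41). Adora2a, the adenosine receptor coupled to it, differed by 0.19 (SE 0.13), and Penk, the enkephalin precursor, by 0.07 (SE 0.23). Sp9, a zinc finger factor required for iSPN, had 4060 in Dlx5/6::Cre;Ebf1fl/- embryo 1 and 1954 to 2258 in the other 5 mutant embryos. With the code prefix in the fit the median of the list was -0.15.
Genes shared by all SPN stayed closer together. Of 17, 13 had a lower mean in Dlx5/6::Cre;Ebf1fl/-, with a median of -0.05. An unadjusted p below 0.05 was found for 3 (17.6%), against 4.27% of all genes tested. Bcl11b, which encodes Ctip2, differed by 0.04 (SE 0.09), and Meis2 by -0.03 (SE 0.10). The 3 members with an unadjusted p below 0.05, Ppp1r1b (DARPP-32) at -0.34, Rxrg, a retinoid receptor, at -0.24 and the phosphoprotein gene Arpp21 at -0.46, were all lower. Without Dlx5/6::Cre;Ebf1fl/- embryo 1, Ppp1r1b was at -0.21 and Arpp21 at -0.26, and without both libraries the 3 were at -0.15, -0.13 and -0.12. Compartment genes differed little. The 7 striosome genes had a median of -0.01, with Oprm1, the mu opioid receptor, at -0.22 (unadjusted p = 0.048), and the 5 matrix genes 0.02.

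**Figure D3:**
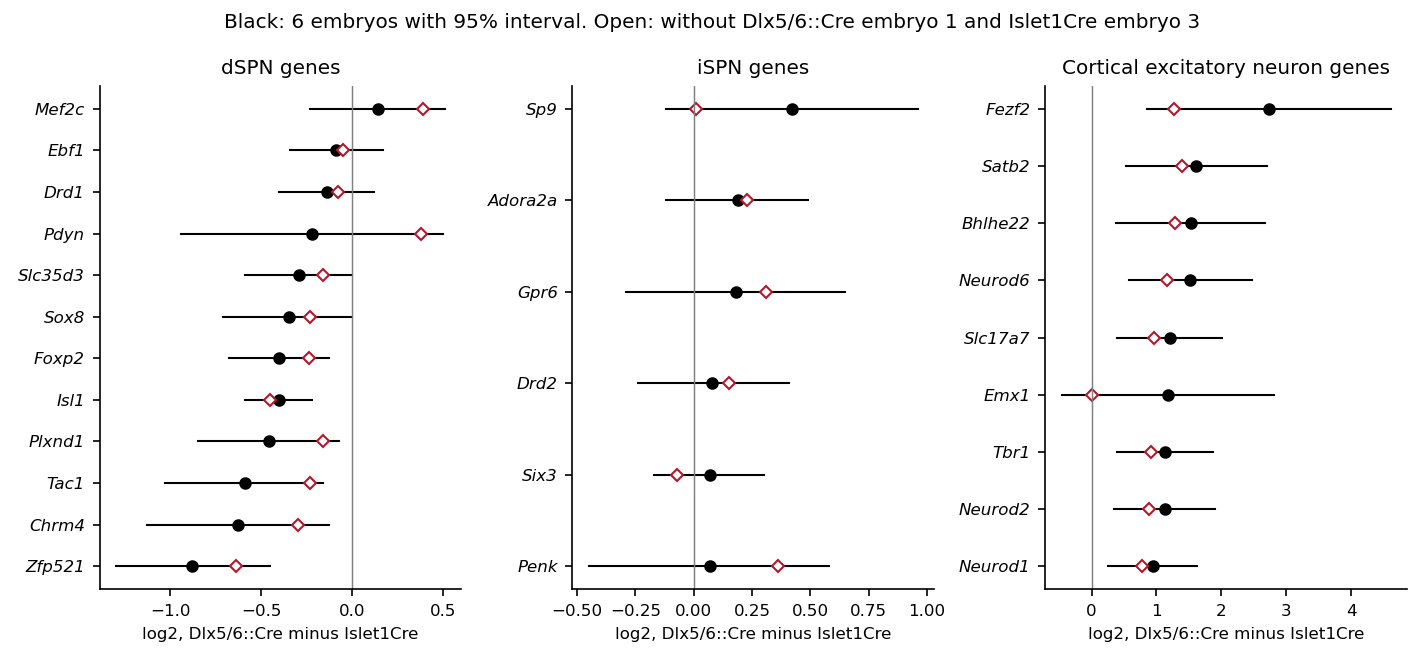
Log2 difference between the mutants for each tested gene of 3 lists. Black points are the fit to 6 embryos with the 95% interval, and open diamonds are the values without Dlx5/6::Cre;Ebf1fl/- embryo 1 and Islet1Cre;Ebf1fl/- embryo 3. Most dSPN genes lie left of 0, the iSPN points lie right of 0 with intervals that cross it, and cortical excitatory genes lie further to the right. The diamonds of most dSPN and cortical genes are nearer to 0.

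The size of the response against controls was then compared between the mutants. Genes that differed from the controls in the mean of both mutants were chosen in a fit to all 9 embryos, a contrast that weights the mutants equally and does not use the difference between them. By edgeR's adjusted p, 452 of 16368 genes (2.76%) passed, 256 lower than control and 196 higher. Of these, 245 and 196 were tested between the mutants. Passing does not require a difference from controls in each mutant, so a gene changed in 1 mutant alone can be a member. Gadd45g is a member with means of 1014 in Dlx5/6::Cre;Ebf1fl/-, 269.1 in Islet1Cre;Ebf1fl/- and 233.4 in controls. For such genes the direction between the mutants follows from that change and does not measure a shared response. The controls of this contrast carry both codes unevenly, with IE in controls 1 and 2 and D in control 3 only. A gene that follows the code is therefore shifted in this contrast and between the mutants in the same direction. The choice of genes is thus not independent of the code.
Of the 245 lower genes, 197 (80.4%) were lower in Dlx5/6::Cre;Ebf1fl/- than in Islet1Cre;Ebf1fl/-, against 48.5% of all genes. The median difference of the 245 was -0.18. An unadjusted p below 0.05 was found for 47 in that direction and for 2 in the other. Over all 15885 genes these counts were 422 and 256. Of the 196 higher genes, 136 (69.4%) were higher in Dlx5/6::Cre;Ebf1fl/- than in Islet1Cre;Ebf1fl/-, against 51.5% of all genes. Their median was 0.09, and 14 had an unadjusted p below 0.05 in that direction. No member was called between the mutants.
The shift of the lower genes was smaller without the 2 libraries that stand apart, whereas that of the higher genes moved in either direction. Without Islet1Cre;Ebf1fl/- embryo 3 the median of the lower genes was -0.10 and that of the higher genes 0.03. Without Dlx5/6::Cre;Ebf1fl/- embryo 1 they were -0.13 and 0.12. With neither library the medians were -0.05 and 0.07. Of the lower genes, 152 of 245 (62.0%) were then lower, against 51.8% of all genes. Of the higher genes, 125 of 196 (63.8%) were higher, against 48.2% of all genes. In that direction 21 of the 196 had an unadjusted p below 0.05, against 480 of all 16218 genes. With the prefix in the fit the medians were -0.16 and 0.05. The part of embryo sex or of RNA from other tissue in these shifts was not tested.

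**Figure D4:**
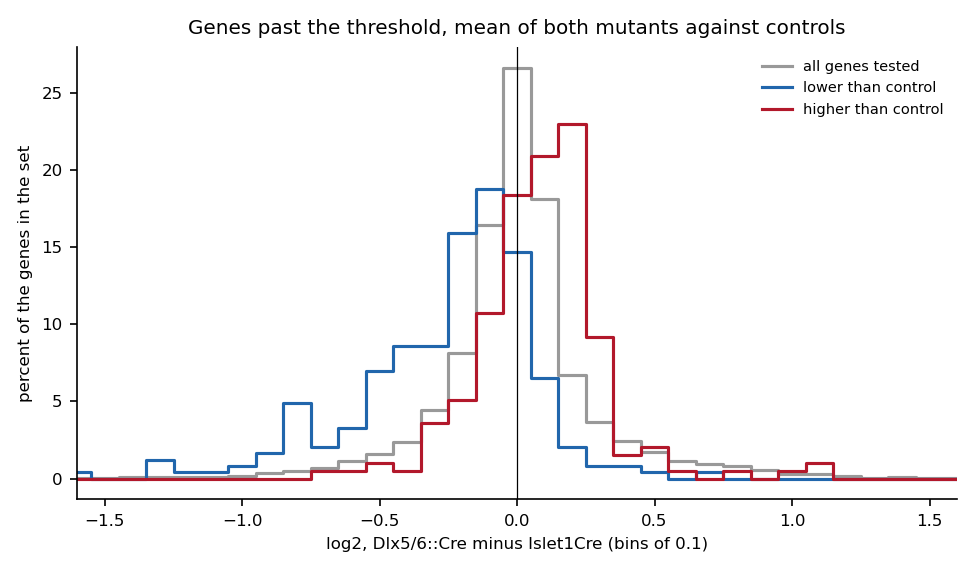
Distribution of the log2 difference between the mutants in bins of 0.1, as percent of the genes in each set. Blue are the 245 genes lower than control in the mean of both mutants, red the 196 higher, and grey all genes tested. The blue curve is shifted and has a tail to the left, whereas the red one is centred slightly to the right of 0.

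The 5 lower genes of this set with the smallest p between the mutants were Fblim1, Acaa1b, Zfp521, Rnf207 and Atp6ap1l. Fblim1, a filamin-binding LIM protein of cell adhesion sites, had 1835, 1955 and 1892 in Dlx5/6::Cre;Ebf1fl/-, 2427, 2458 and 2624 in Islet1Cre;Ebf1fl/- and 3195 to 3615 in controls. Each of its groups was tight and the 3 did not overlap, with a difference of -0.41 (SE 0.07, edgeR adjusted p = 0.788). It stayed at -0.42 with the prefix in the fit and at -0.35 without both libraries. Acaa1b, a peroxisomal thiolase, had 9.71, 12.8 and 13.1 against 38.1, 34.1 and 35.8, but control 3 (26.0) was also below controls 1 and 2 (69.7 and 63.7), and 24.4% of its windows occur in Acaa1a. Rnf207 differed by -0.95 and Atp6ap1l by -2.24, and in both control 3 was the lowest control.
The 5 higher genes were Gadd45g, Txnip, Fjx1, Dab1 and Lyz2. Dab1, the intracellular adaptor of Reelin receptors, had 921.8, 726.6 and 742 against 441.7, 589.5 and 578.1, with 402.6 to 481.2 in controls. Fjx1, a secreted kinase of the planar polarity pathway, had 3158, 2905 and 2655 against 2328, 1842 and 2278, with 1457 to 1664 in controls. In both genes the Dlx5/6::Cre;Ebf1fl/- embryos were the highest and the mutant groups did not overlap, with differences of 0.56 (SE 0.15) and 0.43 (SE 0.11). For Dab1, Islet1Cre;Ebf1fl/- embryo 1 lay within the range of the controls. Lyz2, a macrophage lysozyme, differed by 0.98 (SE 0.27) and Txnip, a redox regulator, by 0.50 (SE 0.13). For Txnip control 3 was the highest control, at 815.7, and the difference with the prefix in the fit was 0.02.
A list of 13 axon and synapse genes that the study displayed as Ebf1-dependent, chosen by it on these samples, holds 10 genes lower than control in the mean of both mutants and 3 higher. Of the 10, 8 were lower still in Dlx5/6::Cre;Ebf1fl/-, with a median of -0.41 that became -0.24 without Dlx5/6::Cre;Ebf1fl/- embryo 1, -0.19 without Islet1Cre;Ebf1fl/- embryo 3 and -0.10 without both. The 3 higher genes had a median of 0.09. Over all 13 the median was -0.17, and 0.00 without both libraries. Reln, the secreted positioning signal, had 944.5, 1118 and 1353 against 1623, 1837 and 3819, a difference of -1.09 (SE 0.31). Syt4, a synaptotagmin, differed by -0.75 (SE 0.27) and Nefl, the light neurofilament, by -0.78 (SE 0.32). In all 3 genes Islet1Cre;Ebf1fl/- embryo 3 was the highest mutant embryo, and without both libraries the differences were -0.49, -0.23 and -0.18. Chrm3, a muscarinic receptor that is low in controls (69.3 to 89.0), had 500.8, 666.5 and 755 against 793.7, 566.1 and 606.7, a difference of -0.04 (95% interval -0.46 to 0.39).

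By the rule for named genes, the 10 most separated genes in each direction were taken up. Of the 10 higher in Dlx5/6::Cre;Ebf1fl/-, control 3 was on their side of the other controls for 4 and on the opposite side for 6. Over all genes tested these shares were 28.9% and 29.8%. The 6 on the opposite side were Gadd45g, Cyp26b1, Sema3c, Slc1a2, Id2 and Igfbp5, and none was called.
Gadd45g, a gene induced by stress and in differentiating neural precursors, had 1606, 687.5 and 746.9 in Dlx5/6::Cre;Ebf1fl/-, 265, 246.9 and 295.3 in Islet1Cre;Ebf1fl/- and 189.5 to 264.1 in controls. Islet1Cre;Ebf1fl/- embryos were near the controls and every Dlx5/6::Cre;Ebf1fl/- embryo was above them. The difference was 1.91 (SE 0.32, edgeR adjusted p = 0.689) and 1.42 without Dlx5/6::Cre;Ebf1fl/- embryo 1, where the gene was called (adjusted p = 0.00241). Over all alternatives its adjusted p ran from 1.98e-07 to 1, with 4 of 15 below 0.05.
Cyp26b1, which degrades retinoic acid, had 1935, 2276 and 746.9 against 561.3, 428.5 and 404.5, with 360, 668 and 186.6 in controls. The groups did not overlap but Dlx5/6::Cre;Ebf1fl/- embryo 3 was close to control 2. The difference was 1.82 (SE 0.37, edgeR adjusted p = 0.922, range over the alternatives 0.00787 to 1). Sema3c, a secreted semaphorin, had 1266, 1028 and 715.9 against 592.6, 486.7 and 510.1, a difference of 0.92 (SE 0.20). Id2, an inhibitor of helix-loop-helix factors, differed by 0.86 (SE 0.21), Igfbp5, a binding protein of insulin-like growth factors, by 0.59 (SE 0.15), and Slc1a2, a glutamate transporter, by 0.47 (SE 0.11). Rprm, a cell cycle arrest gene, had a difference of 0.83 (SE 0.21), and Arl5a, a small GTPase, of 0.41 (SE 0.08), and in both control 3 was the highest control. Without both libraries that stand apart, Cyp26b1 differed by 1.62, Sema3c by 0.69, Id2 by 0.59, Igfbp5 by 0.44 and Rprm by 0.50. The differences of Slc1a2 (0.52) and Arl5a (0.45) were then not smaller.
Of the 10 lower genes, control 3 was on the side of Dlx5/6::Cre;Ebf1fl/- for 5 and between the other controls for 3. It was on the opposite side for 2, Zfp521 and Inf2. Over all genes tested, 28.9% were on the same side and 29.8% on the opposite side. Inf2, a formin that shapes actin filaments, had 1272, 1456 and 1367 against 1630, 1981 and 1920, a difference of -0.44 (SE 0.10). Prkaa2, a catalytic subunit of AMP-activated kinase, had 970.4, 1079 and 1240 against 1741, 1755 and 1417, a difference of -0.59 (SE 0.12). Gm10260, 47.2% of whose windows occur in Rps18, differed by -0.63 (SE 0.12) and Pisd-ps1, a pseudogene, by -0.58 (SE 0.12). Neither Rps18 (0.10, SE 0.19) nor Pisd (-0.05, SE 0.08) showed a separation.

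Markers of tissue next to the striatum also moved with the comparison. All 9 cortical excitatory neuron genes were higher in Dlx5/6::Cre;Ebf1fl/-, with a median of 1.21. An unadjusted p below 0.05 was found for 8 (88.9%), against 4.27% of all genes tested, though none of the 9 was called. Their summed level was 226, 99.4 and 108.7 CPM in Dlx5/6::Cre;Ebf1fl/-, 68.7, 38.6 and 72.6 in Islet1Cre;Ebf1fl/- and 94.3, 68.7 and 38.6 in controls. The mutant groups did not overlap, and controls covered the range of Islet1Cre;Ebf1fl/- and stayed below every Dlx5/6::Cre;Ebf1fl/- embryo. Tbr1, a T-box factor of early cortical neurons, had 1667, 892.4 and 786 against 562.7, 343.4 and 621. Neurod6, a cortical helix-loop-helix factor, had 1507, 509.9 and 854.5 against 428.1, 200.8 and 377.6, and Fezf2, a factor of deep-layer neurons, had 291.4, 81.04 and 57.9 against 39.4, 20.6 and 1.79. Without both libraries the median was 0.96, with 9 of 9 still higher. Whether cortical RNA has a part in the differences of Gadd45g, Cyp26b1, Sema3c, Id2 and the other genes given above was not tested.
Progenitor genes stood apart in 1 embryo. All 12 cell cycle genes had a higher mean in Dlx5/6::Cre;Ebf1fl/-, with a median of 0.82, but all 12 had a lower one without embryo 1, with a median of -0.28. Mki67, the proliferation antigen, had 3540, 554.5 and 645.8 against 727.1, 987.5 and 868. Genes of progenitors in the lateral ganglionic eminence, the germinal zone of SPN, behaved likewise. The summed level of the 14 was 1012 CPM in Dlx5/6::Cre;Ebf1fl/- embryo 1 and 332.7 to 458.2 in the other 8 libraries, and the median of 0.47 became -0.20 without it. Gsx2, a homeobox gene of these progenitors, had 445.8, 73.8 and 87.2 against 78.8, 85.1 and 66.2. Neither list had a member with an unadjusted p below 0.05.

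**Figure D5:**
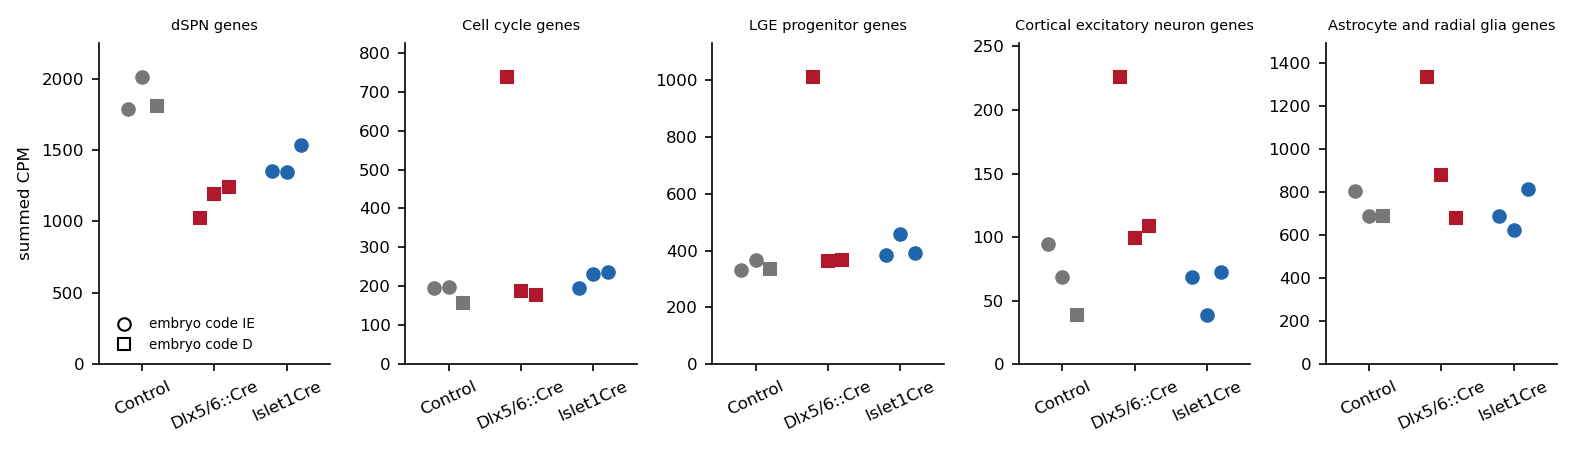
Summed CPM of 5 gene lists in each of the 9 embryos, on axes that start at 0. Colours and symbols are those of the plot of single genes by embryo. Dlx5/6::Cre;Ebf1fl/- embryo 1 is the highest library for the cell cycle, progenitor, cortical and radial glia lists, and the lowest for dSPN genes.

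Interneuron genes showed small differences. Outside the cholinergic lineage only Dlx5/6::Cre recombines in interneurons, cells that by the study's account do not express Ebf1. Of 11 genes of GABAergic interneurons tested, 6 had a lower mean, with a median of -0.15 that became 0.09 without Islet1Cre;Ebf1fl/- embryo 3. Lhx6, a LIM-homeodomain factor of cells from the medial ganglionic eminence, had 1394, 1859 and 1719 against 2062, 2595 and 2183, a difference of -0.47 (SE 0.13, unadjusted p = 0.0063). Sst, the somatostatin gene, differed by -0.33 (SE 0.17) and Npy, neuropeptide Y, by -0.46 (SE 0.23), each with overlapping groups. Without Dlx5/6::Cre;Ebf1fl/- embryo 1 they differed by -0.17 and -0.23, and without both libraries by -0.07 and -0.08. Of 10 cholinergic genes, 8 had a lower mean, with a median of -0.19 that was -0.05 without Dlx5/6::Cre;Ebf1fl/- embryo 1 and -0.38 without its embryo 2. Chat, the acetylcholine-synthesizing enzyme, had 111.2, 202.1 and 192.4 against 210.7, 200.8 and 230.9, and Ecel1, an endopeptidase gene, differed by -0.32 (SE 0.11, unadjusted p = 0.017).
Axon guidance genes were spread around 0. Of 28 tested, 21 had a higher mean, with a median of 0.06. An unadjusted p below 0.05 was found for 4 (14.3%), against 4.27% of all genes tested. Besides Sema3c and Plxnd1 these were Unc5d, a netrin receptor, at 0.79 (SE 0.23), and Epha5, an ephrin receptor, at 0.22 (SE 0.09). Unc5d had 954.2, 575.5 and 500.6 against 369.7, 421.4 and 375.8. Without Dlx5/6::Cre;Ebf1fl/- embryo 1, Unc5d differed by 0.46 and Epha5 by 0.13.
Among glia, all 7 astrocyte and radial glia genes tested had a higher mean (median 0.50, 0.19 without Dlx5/6::Cre;Ebf1fl/- embryo 1), as did 8 of 9 microglia genes (0.40) and 6 of 7 oligodendrocyte lineage genes (0.23). C1qb, a complement subunit made by microglia, had 360.5, 365.1 and 270.7 against 273.2, 163.2 and 255.9, and these groups overlapped. Of 6 thalamic and pallidal genes tested, 3 had a higher mean and 3 a lower one, with a median of 0.13. Slc17a6, a glutamate transporter, differed by 1.22 (SE 0.37, and 0.80 without Dlx5/6::Cre;Ebf1fl/- embryo 1). Tcf7l2 of the same list differed by -0.23 (SE 0.27). Endothelial and mural genes (median -0.01) and blood genes (0.04) were balanced, immediate early genes had a median of 0.20 with Dusp1, a phosphatase, at 0.35 (unadjusted p = 0.046, and 0.17 without that embryo), and Ttr, the defining transcript of choroid plexus, was at most 14.95 in any embryo, with 3 list members tested (median -0.49).
Genes that often differ between mouse strains did not separate the mutants. The 5 tested had a median of -0.06 and none had an unadjusted p below 0.05. In all lists together the smallest adjusted p was 0.922.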

How the data were processed

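Per the methods of the study, the authors made TruSeq stranded libraries from 400 ng of total RNA, read them over 75 bases, mapped them with STAR 2.4.0k, discarded multi-mapped reads and counted on Ensembl genes with HTSeq 0.5.3. The deposited values are counts, whole numbers per gene without normalization, for 44886 gene identifiers, of which 44133 were found in GENCODE M21 (GRCm38). Totals ran from 16548083 to 41507049 per embryo. The 6 mutant embryos were fitted with edgeR 4.0.16 (R 4.3.3), using filterByExpr (minimum count 10), TMM scaling, the quasi-likelihood test and Benjamini-Hochberg adjustment at 0.05. SE is the absolute log2 difference over the square root of F. Normalized counts are counts over DESeq2 1.42.0 size factors of all 9 embryos. The edgeR steps and DESeq2's Wald test were tried on simulated counts, with 100 genes changed by a log2 of 1 and 100 by 2. The changed genes were drawn from those with a mean count of at least 100, and no simulated library was made to stand apart. The shares found hold for that setting only. At an adjusted p below 0.05, edgeR found 83% of the first and 100% of the second. Of its 206 calls, 11.17% were false, as were 21.76% of the 239 calls of DESeq2's Wald test. Both shares exceed the 5% aimed at. CPM are per 1e6 counts on genes.

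Genes were named by rule. These were 10 fixed genes, called genes (mean normalized count of at least 100, groups not overlapping, filled to 10 per direction by unadjusted p), list members with an unadjusted p below 0.05, and the 5 smallest p among genes lower, and among those higher, than control in the mean of both mutants, which does not require a difference in each. Other list members serve as examples. The members and lists were chosen with earlier results of these data known. Replicates differed by more than sampling noise. Alternatives were no filter, a stricter filter (1 CPM in 3 embryos), DESeq2 size factors, DESeq2's Wald test, limma-voom (limma 3.58.1), all 9 embryos, the code prefix as a covariate, a block for replicate number and each mutant embryo left out. Leaving out both libraries that stand apart was added after seeing the data.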

Additional observations from a re-analysis of the deposited data

Results flagged for a closer look

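With the code prefix in the fit to all 9 embryos, Rpsa-ps10 had a log2 difference of 8.30 between the 2 mutant effects, each taken against the controls of its own code (edgeR adjusted p = 0.000211). The value rests on control 3 alone for code D. The 2 controls with code IE had 6133 and 5623 normalized counts, and all 7 other embryos had at most 20.03.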

How the results depend on the processing

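The number of genes called, 2 by the fit to the 6 mutants, was 12 without the filter on low counts, 1 with a stricter filter, 17 with DESeq2's Wald test, 0 with all 9 embryos (844 genes at an unadjusted p below 0.05), 1 with the code prefix and 6 without both libraries that stand apart. It ranged from 1 to 7 when 1 embryo was left out, with 7 without Dlx5/6::Cre;Ebf1fl/- embryo 1. Replicate numbers did not pair the embryos, since same-numbered embryos correlated at -0.06, -0.12 and -0.09 in their deviations, and with a replicate block 1 gene was called, Tuba1c.
With the code prefix, the medians were -0.15 for iSPN, -0.25 for generic SPN, -0.28 for striosome, -0.50 for cholinergic, 2.54 for cortical, 1.03 for thalamic and pallidal, 0.00 for choroid plexus, 0.46 for oligodendrocyte, -0.34 for vessel, 0.40 for blood, -0.06 for immediate early and 0.17 for strain background genes. Without both libraries they were -0.20 for the Ebf family and Cre loci, -0.20 for dSPN, -0.21 for progenitor and -0.25 for cell cycle genes.
Leaving out 1 embryo at a time moved the median from -0.20 to 0.09 for GABAergic interneuron genes, from -0.20 to 0.73 for progenitor genes, from -0.28 to 1.16 for cell cycle genes, from -0.38 to -0.05 for cholinergic genes and from -0.78 to -0.13 for choroid plexus genes.
Signs turned in Ndn and in 5 genes with differences near 0. With the code prefix Ebf1 was 0.12, Dlx5 -0.11, Dlx6 -0.12, Drd2 -0.32, Chrm3 0.19 and Ndn 0.06. Leaving out 1 embryo gave -0.19 to 0.00 for Ebf1, -0.02 to 0.21 for Dlx5, -0.08 to 0.16 for Dlx6, -0.02 to 0.22 for Drd2 and -0.17 to 0.12 for Chrm3. Without both libraries Dlx5 was -0.12 and Chrm3 0.07, and by limma-voom Chrm3 was 0.00. The cause of these changes was not tested. The other 346 values of lists and counts stayed within the spread or within 1.5 times, and 475 values of single genes kept direction and side of the threshold, 25 newly passed it and 9 no longer did.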
